A study of Mus musculus with 39 samples.

Results

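Liver expression of 10 genes that respond to signals and to growth arrest (Cdkn1a, Gadd45a, Gadd45b, Gadd45g, Ccnd1, Myc, Jun, Fos, Atf3 and Egr1) was followed through stress and stress-withdrawal in mice exposed to an aggressor. The genes were chosen by name, and their probes by RefSeq accession. A probe was found for 9 of the 10, with 12 probes among the 25903 tested, and the 9 stand among 17016 genes tested. Ccnd1 was not analysed here. The animals were singly housed C57BL/6J males, given as 5 to 6 weeks old before the sessions, so livers of later points came from older mice. Exposed mice (AggE) spent 6 hrs of each day in a mesh cage set inside the home cage of an SJL aggressor, with 3 brief contacts per session, for 5 or 10 days. Control mice (Ctrl) had the same sessions and the same food deprivation with no aggressor. Livers were collected at 24 hrs after either regimen, at 1.5 wks after the 5-day regimen and at 4 wks after the 10-day regimen, and a partition test next to an aggressor preceded collection by 1 hr. The 2 collections at 24 hrs (5-day and 10-day) and the one at 1.5 wks had 4 Ctrl and 5 AggE mice each, and 4 wks had 6 and 6. Groups follow the source names of the samples, since the descriptions of AggE mice at 24 hrs (5-day) give 1 day of stress, and at 1.5 wks all AggE titles, with that of 1 Ctrl mouse, carry the number 10.

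Immediate early genes are switched on within minutes of a growth factor, hormone or stress signal, without new protein synthesis, and their RNAs are short-lived. In liver they are best known from regeneration and injury. Egr1, Fos, Jun, Atf3 and Myc encode transcription factors of this class. Fos and Jun form the AP-1 dimer, Atf3 is a stress-induced partner or repressor at similar sites, Egr1 is a zinc finger factor downstream of growth factor signaling, and Myc drives growth and ribosome production. Cdkn1a encodes p21, the cyclin-dependent kinase inhibitor induced by p53, and the Gadd45 genes encode small proteins that bind PCNA, CDK1 and the kinase MAP3K4 and take part in growth arrest, p38 and JNK signaling and DNA demethylation.

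Each liver RNA (Cy-5) was hybridized to 1 array against a reference RNA (Cy-3), and every level is given as the log2 ratio of liver to reference, so levels of different genes cannot be set against each other. The share of spots well above background in Cy-5, by the mark of the scanner software, ranged from 15.2% to 70.4% per array and was highest at 4 wks (42.0% to 70.4%). The 7 hepatocyte markers tested were well above background on all 39 arrays. Arrays lay on 11 slides, and Ctrl and AggE mice shared no slide at either 24 hr point, where slide and exposure cannot be told apart. In whole liver, fewer cells of a type and less RNA per cell cannot be told apart. The labels do not say whether the mice of a group came from 1 or several cohorts, and the p-values measure the spread between these livers.

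The genes differed widely in how often they rose above background. Gadd45g was well above background on all 39 arrays, Gadd45b on 34, Cdkn1a and Egr1 on 27, Gadd45a and Myc on 24, Jun on 17, Atf3 on 16 and Fos on 1. Fos was thus not well above background in nearly every liver. At 24 hrs (5-day), Gadd45a, Jun and Fos were well above background on no array of either group.

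**Figure D1:**
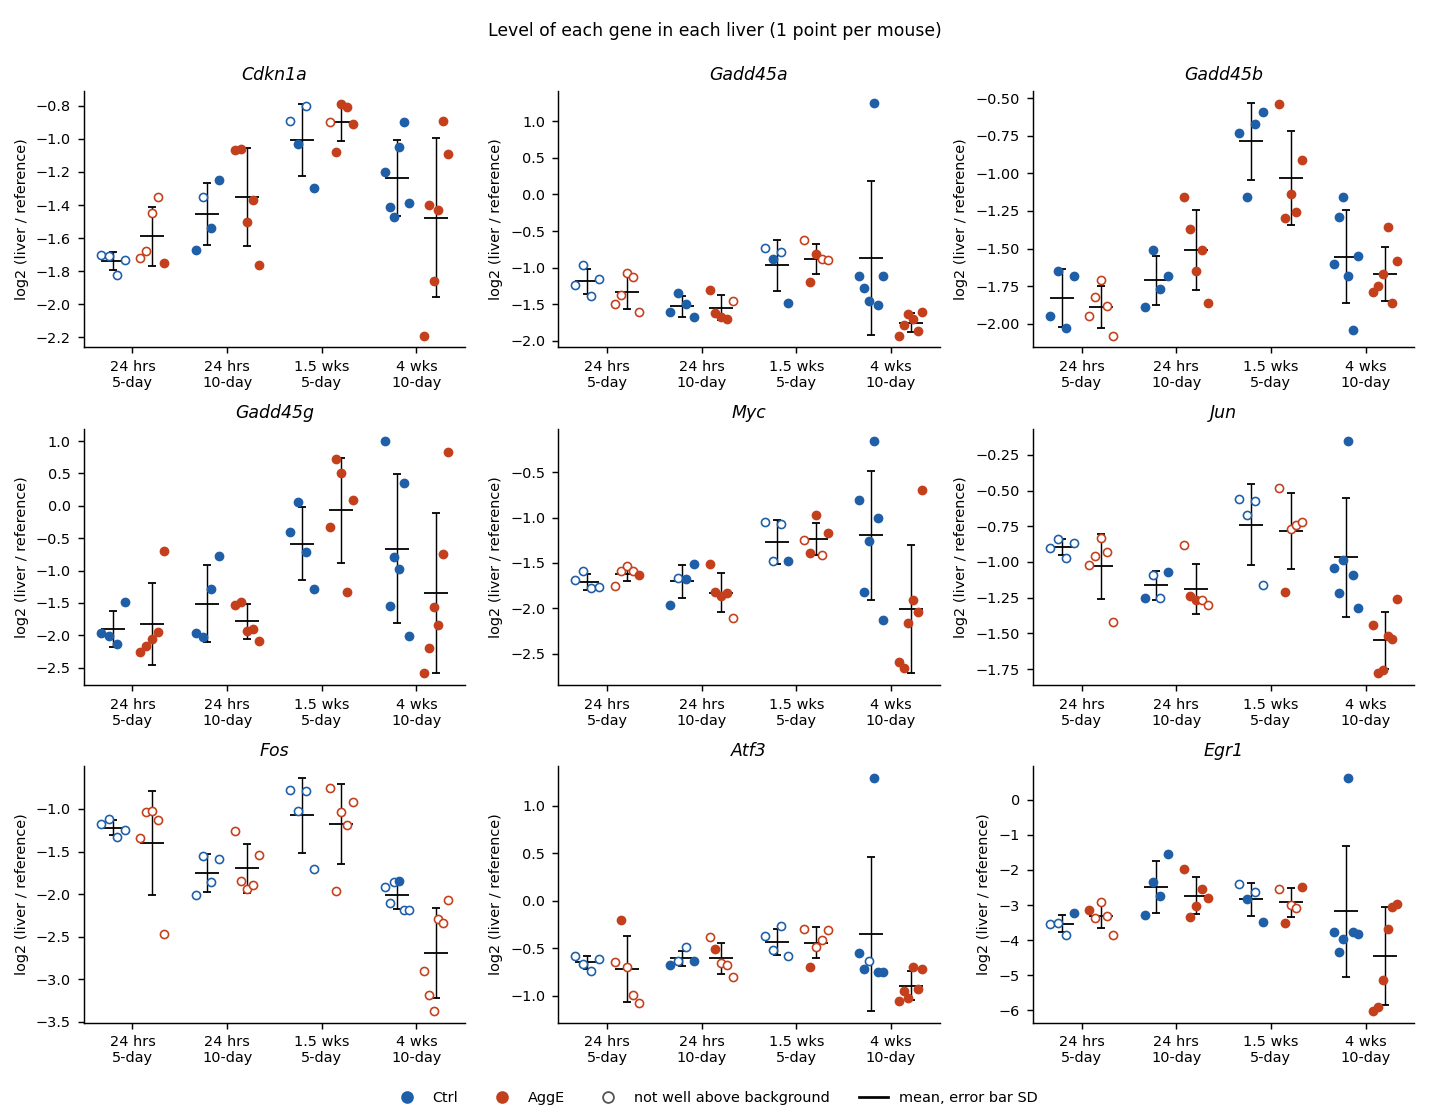
Log2 ratio of liver to reference for the 9 genes in each of 39 mice, by time point, with Ctrl in blue and AggE in red. Filled points are well above background in Cy-5, bars are group means and error bars SD (n = 4 to 6). At 4 wks a single Ctrl mouse stands far above the others for Egr1, Gadd45a, Atf3 and Jun.

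Over the 8 groups, most neighbours in the order of a gene's means overlapped and do not differ beyond their spread. AggE livers at 4 wks held the lowest mean for Gadd45a (-1.75 ± 0.13, SD, n = 6), Myc (-2.01 ± 0.71), Jun (-1.55 ± 0.20), Atf3 (-0.90 ± 0.15) and Egr1 (-4.46 ± 1.40). The highest means lay in the groups at 1.5 wks for Cdkn1a (-0.90 ± 0.11 in AggE, n = 5), Gadd45g (-0.07 ± 0.81 in AggE, n = 5) and Gadd45b (-0.79 ± 0.25 in Ctrl, n = 4), and also for Jun (-0.74 ± 0.28 in Ctrl, n = 4), which was well above background on 0 of those 4 arrays. All but Gadd45g and Egr1 were well above background on no array of at least 1 group, so their order over the 8 groups rests in part on dim spots, and Fos is not ranked. Time points differ in slides, in the age of the mice and partly in the day of the scan, and their levels were not tested against each other.

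At 24 hrs (5-day), the question was whether exposure of the shorter kind left a change in these genes, and no call was made. Limma called 0 of 9 at an adjusted p of 0.05 or less and 0 of 9 at an unadjusted p of 0.05 or less, where 3.19% and 16.8% of all genes were called. The 9 log2 fold changes lay between -0.18 and 0.22 (median -0.06), with 4 higher and 5 lower in AggE. Gadd45g, the best measured, was -1.97, -2.02, -2.13 and -1.49 in the 4 Ctrl mice and -2.26, -2.16, -2.06, -1.95 and -0.70 in the 5 AggE mice. AggE mouse 5 stood above all the others, which ran from -2.26 to -1.49, and the log2 fold change was 0.08 ± 0.53 (SE, adjusted p = 0.970). Its 95% interval of -1.0 to 1.15 covers a doubling in either direction, so a change of that size was not detectable. For Cdkn1a the values were -1.70, -1.71, -1.82 and -1.73 in Ctrl and -1.72, -1.68, -1.45, -1.35 and -1.75 in AggE, overlapping. Cdkn1a, Myc and Atf3 were well above background on 0 Ctrl arrays and on 1 AggE array, and their log2 ratios differed by 0.15, 0.09 and -0.07 (adjusted p = 0.752, 0.928 and 0.940), so no fold is given for them. Gadd45b was well above background on all 4 Ctrl arrays and on 0 AggE arrays, so it has no fold there either (adjusted p = 0.907).

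The 10-day regimen gave the same count at 24 hrs, when 8 of the 9 genes were well above background on some arrays of both groups. Limma called 0 of 9 after adjustment and 0 of 9 before, where 0.094% and 2.82% of all genes were called. Egr1 was -3.29, -2.35, -2.74 and -1.55 in Ctrl mice and -1.96, -3.33, -3.02, -2.54 and -2.81 in AggE mice. The groups covered the same range, and the log2 fold change of -0.25 ± 0.65 (SE, adjusted p = 1.00) was under the spread within either group (SD 0.73 and 0.52). Gadd45b was -1.89, -1.51, -1.77 and -1.68 in Ctrl and -1.16, -1.37, -1.65, -1.51 and -1.86 in AggE, with a log2 fold change of 0.21 ± 0.16 that had the smallest p of the 9 (adjusted p = 1.00). Jun differed by -0.02 ± 0.16 and Atf3 by 0.00 ± 0.24, with 95% intervals of -0.36 to 0.31 and -0.48 to 0.48. Jun was well above background on 2 Ctrl and 2 AggE arrays and Atf3 on 2 and 1, and ratios of dim spots can understate a change. Tested as a difference between the regimens, the change after 5 days minus that after 10 days was called for 0 of 9 genes, and for 0 of 9 before adjustment (0.0353% and 6.29% of all genes), with the largest estimate in Egr1 (0.47 ± 0.92, adjusted p = 0.999).

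After 1.5 wks of stress-withdrawal from the 5-day regimen, no call was made for these genes either. Limma called 0 of 9 after adjustment, as it did of all genes (0%), and 0 of 9 before, against 2.48% of all genes. Gadd45g had the largest estimate, with -0.41, 0.06, -0.71 and -1.29 in Ctrl and -0.32, 0.73, 0.50, -1.33 and 0.09 in AggE mice. Of the 5 AggE mice 3 lay above the highest Ctrl mouse and 1 below the lowest, and the log2 fold change was 0.52 ± 0.53 (SE, adjusted p = 1.00). Gadd45b ran the other way, -0.73, -1.16, -0.67 and -0.59 in Ctrl and -0.54, -1.30, -1.14, -1.26 and -0.91 in AggE (-0.24 ± 0.16, adjusted p = 1.00). Tested against the change at 24 hrs (5-day), that at 1.5 wks was called different for 0 of 9 genes, and for 0 of 9 before adjustment (0.0999% and 7.62% of all genes). One slide held 3 Ctrl mice and 1 AggE mouse of this time point, and within it the differences of the 9 genes ran from -0.12 (Jun) to 0.45 (Gadd45g).

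At 4 wks after the 10-day regimen, all 9 estimates were negative, that is lower in AggE, and their median was -0.68 on the log2 scale against 0.0079 for all genes. Limma called 3 of 9 at an adjusted p of 0.05 or less (Jun, Myc and Gadd45a, all lower) and 6 of 9 at an unadjusted p of 0.05 or less, where 4.11% (2.76% lower in AggE) and 22.6% of all genes were called. Egr1 alone passed both that unadjusted limit and a change of 2-fold, as 0.300% of all genes did. Without Ctrl mouse 4, which stood far above its group, limma called 1 of 9 after adjustment and 5 of 9 before, where 1.78% and 20.2% of all genes were called.

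**Figure D2:**
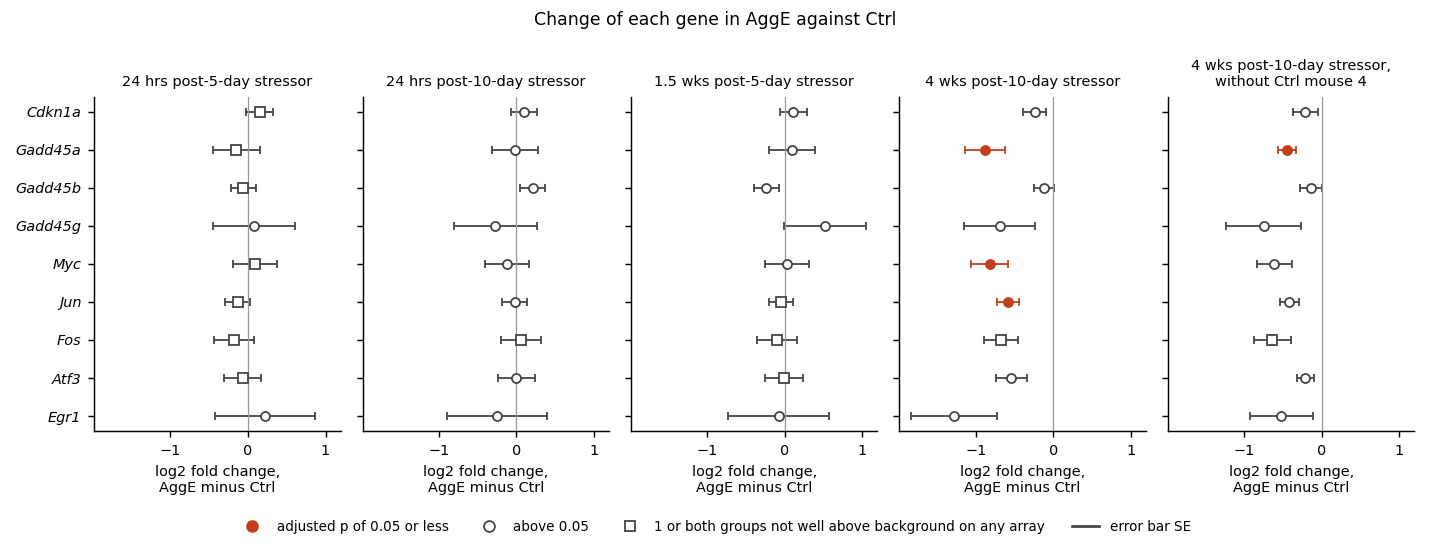
Log2 fold change of AggE against Ctrl for the 9 genes at each of the 4 comparisons, and at 4 wks without Ctrl mouse 4, with SE as error bars. Red points have a limma adjusted p of 0.05 or less and squares had 1 or both groups not well above background on any array. The estimates center on 0 in the first 3 panels and lie below 0 at 4 wks, where leaving out 1 mouse keeps the sign of all 9 and leaves Gadd45a as the call.

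Gadd45a, which ties stress signals to growth arrest, ran from -1.51 to 1.25 in the 6 Ctrl mice (median -1.20) and from -1.93 to -1.61 in the 6 AggE mice (median -1.74). Every AggE liver lay below every Ctrl liver, the one gene of the 9 whose groups did not overlap (1.87% of all genes), but the Ctrl maximum came from mouse 4 and the other 5 Ctrl mice lay between -1.51 and -1.12. AggE livers lay below Ctrl livers in this way for 1.21% of all genes. The log2 fold change was -0.88 ± 0.26 (SE, adjusted p = 0.0489, 1.84-fold lower). Without Ctrl mouse 4 the difference shrank to -0.45 ± 0.12 and was called (adjusted p = 0.0473). That mouse was left out for its extreme values here, so the smaller SE follows from the choice. Leaving out the Ctrl maximum could not make the groups overlap. The call was lost without any 1 of AggE mice 2 to 6 or Ctrl mice 1, 3 and 6 (adjusted p from 0.0528 to 0.109).

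Jun, the AP-1 subunit, ran from -1.32 to -0.15 in Ctrl (median -1.06) and from -1.78 to -1.26 in AggE (median -1.53). AggE mouse 6 was the only AggE liver within the Ctrl range. The log2 fold change was -0.58 ± 0.14 (SE, adjusted p = 0.0237, 1.49-fold lower), and without Ctrl mouse 4 it was -0.42 ± 0.12 (adjusted p = 0.0566). The call was also lost without AggE mouse 2, without AggE mouse 3 and without Ctrl mouse 3, with adjusted p up to 0.0755.

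Myc, the growth-promoting factor, ran from -2.13 to -0.15 in Ctrl (median -1.14) and from -2.66 to -0.70 in AggE (median -2.10). Ctrl mouse 6 (-2.13) lay among the 5 lower AggE livers (-2.66 to -1.91), and AggE mouse 6 (-0.70) lay above 5 of the 6 Ctrl livers. The log2 fold change was -0.82 ± 0.24 (SE, adjusted p = 0.0484, 1.77-fold lower), -0.61 ± 0.22 without Ctrl mouse 4 (adjusted p = 0.137), and -1.08 (adjusted p = 0.00839) without AggE mouse 6. Leaving out any 1 of AggE mice 1 to 5 or Ctrl mice 1, 3, 4 and 5 ended the call (adjusted p from 0.0557 to 0.150). The 3 Myc probes ran the same way and differed in size, the others by -0.58 ± 0.21 (adjusted p = 0.107) and -0.17 ± 0.09 (adjusted p = 0.269).

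Egr1 had the largest estimate of the 9 and the widest spread. It ran from -4.34 to 0.62 in Ctrl (median -3.81) and from -6.02 to -2.97 in AggE (median -4.40), all 12 arrays well above background. AggE mice 1, 2 and 3 (-6.02, -5.90 and -5.13) lay below every Ctrl liver, and AggE mice 4, 5 and 6 (-3.68, -3.06 and -2.97) lay above 5 of the 6 Ctrl livers. The log2 fold change was -1.28 ± 0.56 (SE, adjusted p = 0.189) and -0.52 ± 0.41 without Ctrl mouse 4 (adjusted p = 0.535).

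Atf3 was -0.75 to 1.29 in Ctrl (median -0.68) and -1.06 to -0.70 in AggE (median -0.94), which gave -0.54 ± 0.20 (SE, adjusted p = 0.122) and -0.21 ± 0.11 without Ctrl mouse 4 (adjusted p = 0.272). Fos had -2.19 to -1.85 in Ctrl (median -2.0) and -3.37 to -2.07 in AggE (median -2.62), with AggE mice 1, 2 and 3 again lowest. Its difference of -0.68 ± 0.22 (SE, adjusted p = 0.0783) has no fold, since Fos was well above background on 0 AggE arrays and 1 Ctrl array.

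Cdkn1a and Gadd45b had the smallest estimates of the 9, and Gadd45g was not called. Cdkn1a ran from -1.47 to -0.90 in Ctrl (median -1.29) and from -2.19 to -0.89 in AggE (median -1.42), a log2 fold change of -0.24 ± 0.15 (SE, adjusted p = 0.371) that was -0.21 ± 0.16 without Ctrl mouse 4. Gadd45b was -2.04 to -1.16 in Ctrl and -1.86 to -1.36 in AggE (-0.12 ± 0.13, adjusted p = 0.687), while its second probe, well above background on 5 of these 12 arrays, gave -0.38 ± 0.16 (adjusted p = 0.181). Gadd45g ran from -2.02 to 1.01 in Ctrl (median -0.88) and from -2.58 to 0.84 in AggE (median -1.71), and a log2 fold change of -0.69 ± 0.46 (SE, adjusted p = 0.415) was small beside SDs of 1.15 and 1.24.

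The number called at 4 wks changed with the processing. After loess alone, with no quantile step, limma called 0 of 9 after and 0 of 9 before adjustment. Over all genes, adjusted calls rose from 699 to 1713 with that setting. The estimates were -0.16 for Jun, -0.30 for Myc and -0.59 for Gadd45a, and Cdkn1a (0.21), Gadd45b (0.21) and Fos (0.32) turned to higher in AggE. From the log ratios the authors deposited, Jun, Myc and Gadd45a differed more, by -1.01, -1.18 and -1.26, with adjusted p of 0.114, 0.262 and 0.167. Over 17 alternatives Gadd45a, Gadd45g, Myc, Jun, Atf3 and Egr1 were lower in AggE in all 17, and Jun was called in 8, Gadd45a in 5 and Myc in 4. With slide as a random block, limma called 0 of 9 (smallest adjusted p = 0.124) and 12 of all genes. One slide held Ctrl mice 4, 5 and 6 with AggE mouse 1, and within it the AggE mouse minus the Ctrl mean was -1.47 for Gadd45a, -0.58 for Jun and -1.50 for Myc, or -0.61, -0.23 and -1.02 without Ctrl mouse 4. With slide as a fixed block, the estimates were -1.30, -0.51 and -1.05 (adjusted p = 0.0945, 0.169 and 0.129), and Cdkn1a was called instead (-0.83, adjusted p = 0.0356). AggE mouse 1, the only AggE mouse on that slide, held the lowest Cdkn1a of its group (-2.19), and 4.01% of all genes were more than 1 below its group in this mouse, the most of the 39.

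Whether these changes at 4 wks differed from those at 24 hrs (10-day) was tested directly. The estimate at 24 hrs (10-day) less the one at 4 wks was positive for all 9 genes, from 0.32 (Gadd45b) to 1.03 (Egr1), but limma called 0 of 9 after adjustment (0.0823% of all genes) and 3 of 9 before (9.99% of all genes). The 3 were Jun (0.56 ± 0.22, adjusted p = 0.475), Gadd45a (0.86 ± 0.39, adjusted p = 0.540) and Fos (0.73 ± 0.34, adjusted p = 0.545), which was well above background on 0 of 9 arrays at 24 hrs (10-day) and 1 of 12 at 4 wks, so that its value has no fold. The difference between the time points was therefore not past the limit for any of the 9.

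Ctrl mouse 4 at 4 wks was set against the other 5 Ctrl livers of its group, as a description of 1 animal. It was higher by 4.56 on the log2 scale for Egr1, 2.55 for Gadd45a, 1.97 for Atf3, 1.26 for Myc and 0.98 for Jun, which placed these genes at ranks 2, 12, 30, 78 and 123 from the top of all genes in that liver. Cdkn1a (0.22), Gadd45b (-0.15) and Gadd45g (-0.38) stayed near the group. In all, 4 of 9 were more than 1 above it, against 0.683% of all genes. Fos differed by 0.20 in ratio, but it was not well above background in the other 5 Ctrl mice, so the size of its difference is not known. In this liver Fos was well above background on all 10 of its spots, against at most 5 of 10 on any other array.

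Of 31 other immediate early genes tested, 11 were also more than 1 above the group in this mouse, among them Dusp6, a MAP kinase phosphatase (3.62), Egr2 (2.01), Btg2 (1.76), Maff (1.69), Klf6 (1.68), Nr4a1 (1.39) and Junb (1.05). Egr2 was well above background on only 2 of the 39 arrays, so the size of its value rests on dim spots. Klf2 lay at -1.35. Trp53inp1 (2.20) and Plk3 (1.68) stood above the group among 27 p53 targets and growth arrest genes. No gene of the AP-1 and ATF partners, the Myc network, the G1 to S machinery or the MAP kinase partners reached 1 above the group. Of the 4 skeletal muscle markers, all well above background in the same liver, Tnnt3 (2.10) and Myh4 (1.65) lay above the other Ctrl mice and Ckm (0.24) and Acta1 (0.05) near them. Other genes of striated muscle, picked after their values were seen, were among the 25 highest of this liver, Myh8 (3.27), Cox8b (3.04), Mb (2.90), Myh1 (2.78), Ckmt2 (2.48), Myl1 (2.23), Myh2 (2.22), Fabp3 (2.15) and Sln (2.12). The summed Cy-5 signal of the 4 listed markers, 1460, was the highest of the 6 Ctrl mice (466 to 1460) and within the AggE range (469 to 2300). Neutrophil markers summed to 1250 in this mouse, also the Ctrl maximum (495 to 1250, and 497 to 631 in AggE), with S100a9 at 2.49 and S100a8 at 0.78 above the others, while Mpo (0.04), Csf3r (-0.07) and Cxcr2 (-0.24) lay near them and 3 of 5 were well above background. Cholangiocyte markers, at 2000, were likewise at the Ctrl maximum (1110 to 2000, and 936 to 1400 in AggE), with Sox9 at 1.26 and Spp1 at 0.90 and the other 3 markers below 0. The part of any of these in the levels of the immediate early genes was not tested.

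**Figure D3:**
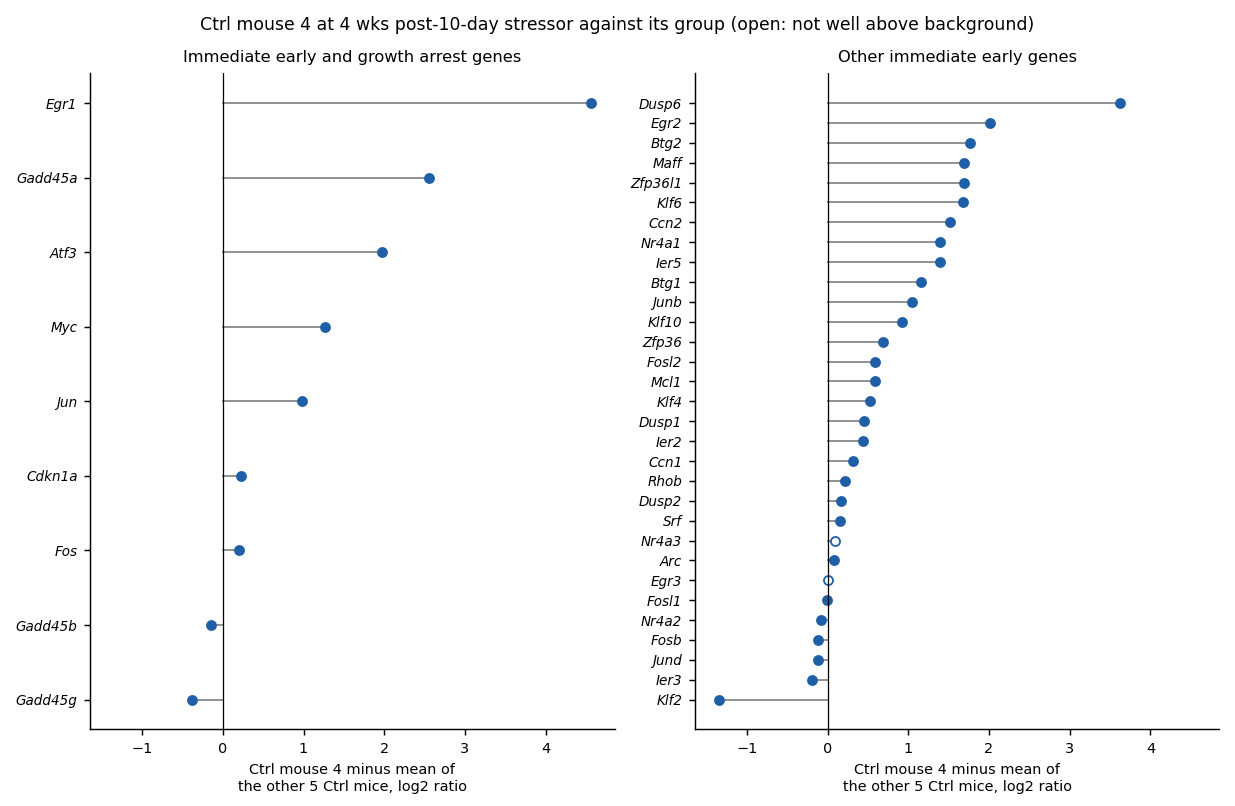
Log2 ratio in Ctrl mouse 4 at 4 wks minus the mean of the other 5 Ctrl mice, for the 9 genes (left) and 31 other immediate early genes (right). Egr1 and Gadd45a lead the left panel and Dusp6 the right, while Gadd45b, Gadd45g, Fos and Cdkn1a lie near 0. Fos was not well above background in the other 5 Ctrl mice.

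Across all 39 livers, the next highest count was 3. AggE mouse 6 at 4 wks had 3 genes that were more than 1 above the rest of its group (Egr1, Gadd45g and Myc), as were 0.535% of all genes. Every other mouse had 0 or 1. On the low side, 2 genes were more than 1 below the group in Ctrl mice 2 and 6 and in AggE mice 1 and 2 at 4 wks, and 0 or 1 in all others. Of all genes, 0.418%, 0.189%, 4.01% and 0.963% were that low in these 4 mice in turn.

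Cdkn1a, Myc, Jun and Fos were each printed 10 times on every array. Spots of 1 array share its labelling, hybridization, slide and scan, so the SD between mice holds those sources as well as differences between livers. The median SD between the 10 spots was 0.12 for Jun, 0.14 for Fos, 0.18 for Cdkn1a and 0.19 for Myc on the log2 scale. Between mice of a group the pooled SD of the array means was 0.25, 0.40, 0.27 and 0.43. In Ctrl mouse 4, Jun had a spot SD of 0.07 around -0.15 and Myc a spot SD of 0.14 around -0.15, and all 10 spots of each lay within -0.25 to -0.03 and -0.38 to 0.16. Gadd45a, Gadd45b, Gadd45g, Atf3 and Egr1 had 1 spot per probe and no such check.

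**Figure D4:**
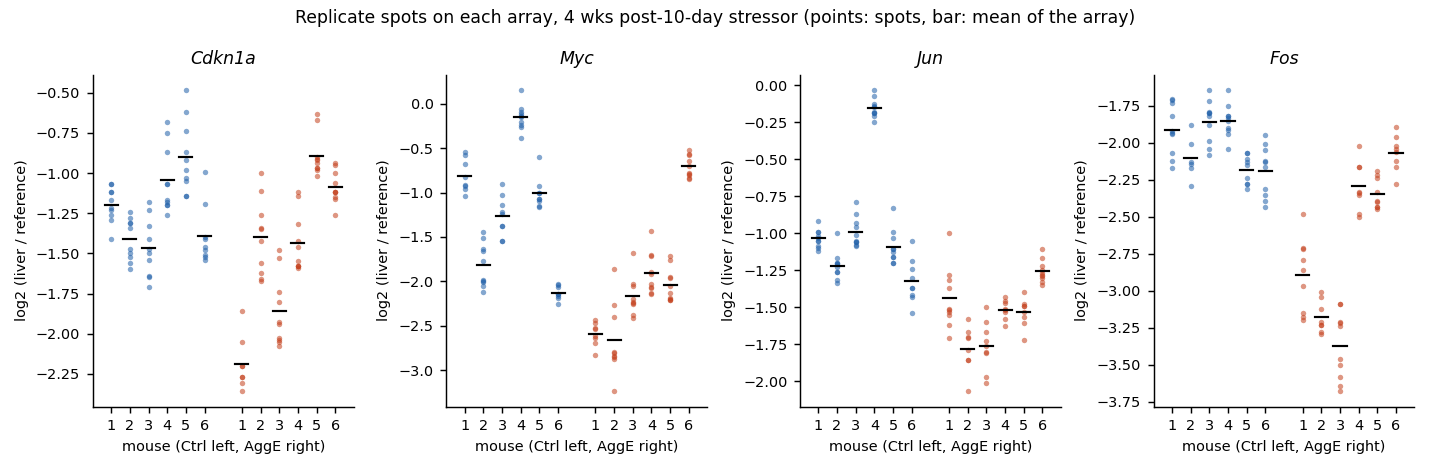
Replicate spots (points) and their array mean (bar) for Cdkn1a, Myc, Jun and Fos in the 6 Ctrl and 6 AggE mice at 4 wks, as the log2 ratio of liver to reference. All spots of Jun and Myc in Ctrl mouse 4 lie at the top of their panels, and Myc in AggE mouse 6 stands above the other AggE mice.

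Gadd45g, the cytokine-induced member of its family, was the one gene measured well above background in at least 36 livers. Its pattern over mice was described by the correlation of log2 ratios after subtraction of group means (n = 39 mice, sharing arrays and scaling). The genes most like it were Phlda1, a pleckstrin homology domain gene (Pearson r = 0.82, Spearman rho = 0.80), Cish, the STAT5-induced feedback inhibitor (0.78 and 0.72), and Plk3, a polo-like kinase of stress responses (0.75 and 0.69). Leaving out the 2 mice farthest from the median of Gadd45g, Pearson r was 0.77, 0.75 and 0.68. Among the other 8 genes, Myc was the closest to Gadd45g (r = 0.65, and 0.76 without Ctrl mouse 4), whereas Gadd45a (-0.06) and Gadd45b (-0.18) were not like it. Gadd45a instead ran with Atf3 (r = 0.87), Jun (0.79) and Egr1 (0.77), and without Ctrl mouse 4 those fell to 0.59, 0.66 and 0.51. Gadd45a, Atf3, Jun and Egr1 were well above background on 24, 16, 17 and 27 arrays, so these values rest in part on dim spots.

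**Figure D5:**
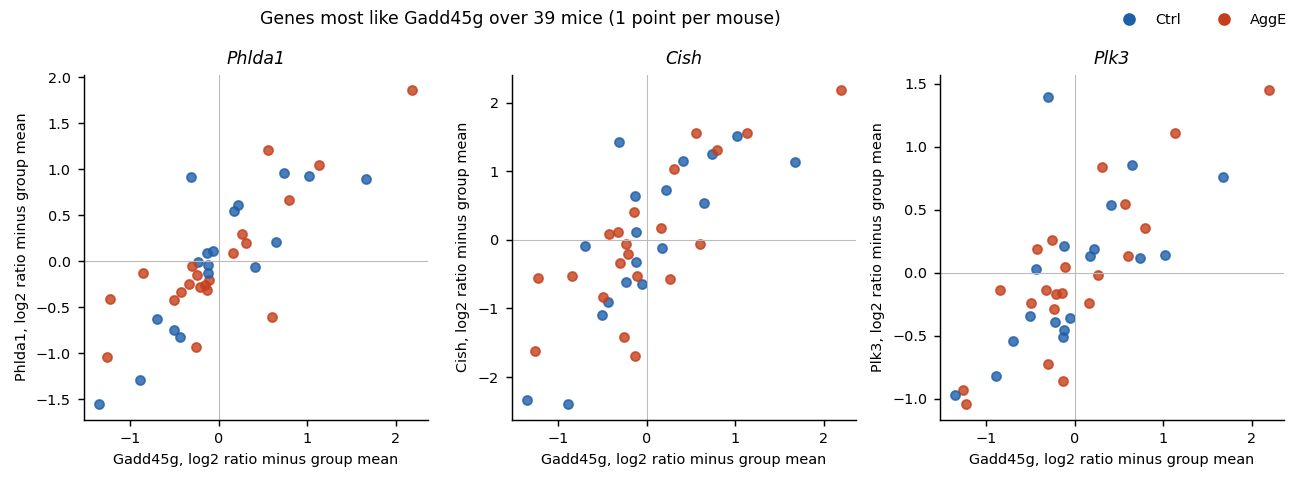
Deviation from the group mean of Gadd45g (x axis) and of Phlda1, Cish and Plk3 (y axes), in log2 ratio, for each of 39 mice. Livers with high Gadd45g for their group tended to be high in the other 3 genes.

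The other genes of these pathways were read from 6 lists of 135 genes, of which 130 were tested. At 4 wks, 26 of 31 other immediate early genes were lower in AggE (median log2 fold change -0.29, against 0.0079 for all genes, of which 47.5% were lower). Limma called 3 of the 31, all lower, where 4.11% of all genes were called and 2.76% were called lower, Mcl1, the short-lived survival factor (-0.54 ± 0.11, adjusted p = 0.0117), Dusp2 (-0.35 ± 0.09, adjusted p = 0.0245) and Ier5 (-0.62 ± 0.18, adjusted p = 0.0484). Without Ctrl mouse 4 the list's median was -0.13 and Mcl1 alone was called (-0.44 ± 0.11, adjusted p = 0.0334). At the other points this list had 0 calls, with medians of -0.041, -0.0097 and -0.058 at 24 hrs (5-day), 24 hrs (10-day) and 1.5 wks. Of all genes, 3.19%, 0.094% and 0% were called at these points in turn. The smallest p there belonged to Btg2 (0.44 ± 0.22, adjusted p = 0.282), Zfp36l1 (-0.39 ± 0.26, adjusted p = 1.00) and Klf4 (-0.22 ± 0.14, adjusted p = 1.00).

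Among 27 p53 targets and growth arrest genes, Cdkn2c (p18, an inhibitor of CDK4 and CDK6) was called at 24 hrs (5-day), higher in AggE by 0.60 ± 0.13 (SE, adjusted p = 0.00906), from -1.27 ± 0.04 in Ctrl (SD, n = 4) to -0.67 ± 0.23 in AggE (n = 5). After 10 days it was higher by 0.35 ± 0.13 (adjusted p = 1.00). The list had 1 call in each direction at 4 wks, Cdkn2b, the p15 inhibitor (-0.43 ± 0.12), and Gas2 (0.31 ± 0.09), each at an adjusted p of 0.0414. The counts, 1 of 27 at 24 hrs (5-day) and 2 of 27 at 4 wks, stand beside 3.19% and 4.11% of all genes called and are near those shares. At 1.5 wks Phlda3 had the smallest p (-0.20 ± 0.14, adjusted p = 1.00). Without Ctrl mouse 4, Gas2 kept the call (adjusted p = 0.0396) and Cdkn2b did not (0.0658). Cdkn2b was well above background on 2 AggE and 3 Ctrl arrays.

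In the Myc network of 16 genes, Odc1, a direct Myc target and the rate-limiting enzyme of polyamine synthesis, was lower in AggE at 24 hrs (5-day) by 0.56 on the log2 scale (a log2 fold change of -0.56 ± 0.14, adjusted p = 0.0264). Myc itself has no fold at that point, where it was well above background on 1 of 9 arrays. At 24 hrs (10-day) the difference of Odc1 was -0.44 ± 0.14 (adjusted p = 1.00). Mga, a Max partner, had the smallest p of the list at 1.5 wks (-0.24 ± 0.11, adjusted p = 1.00) and was called at 4 wks (-0.34 ± 0.09, adjusted p = 0.0367), not without Ctrl mouse 4 (0.0801), where Mycl had the smallest p (-0.66 ± 0.20, adjusted p = 0.0770). The list thus had 1 call of 16 at 24 hrs (5-day) and 1 of 16 at 4 wks, beside 3.19% and 4.11% of all genes.

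Of 19 MAP kinase and GADD45 partners, Tdg, the glycosylase that acts with GADD45 proteins in demethylation, was called lower at 24 hrs (5-day) (-0.26 ± 0.07, adjusted p = 0.0489), on 1 array per group well above background, and at 4 wks (-0.27 ± 0.06, adjusted p = 0.0211). Also at 4 wks, Creb1 was lower (-0.36 ± 0.10, adjusted p = 0.0407). Without Ctrl mouse 4 the calls of Tdg (-0.23 ± 0.06, adjusted p = 0.0552) and Creb1 (-0.33 ± 0.11, adjusted p = 0.0901) were lost. Map2k4 had the smallest p at 24 hrs (10-day) (-0.25 ± 0.11, adjusted p = 1.00). The 16 AP-1 and ATF partners and the 21 G1 to S genes had 0 calls at any point, with 1 and 12 cases at an unadjusted limma p of 0.05 or less over the 4 comparisons together, where 16.8%, 2.82%, 2.48% and 22.6% of all genes passed that limit. The smallest p belonged to Batf (-0.27 ± 0.10), Maf (-0.19 ± 0.14), Cebpa (0.41 ± 0.34) and Mafg (0.39 ± 0.21) in the first list, and to Rbl2 (-0.31 ± 0.10), Ccne2 (-0.26 ± 0.13), Mcm6 (-0.54 ± 0.24) and E2f1 (-0.25 ± 0.09) in the second, at 24 hrs (5-day), 24 hrs (10-day), 1.5 wks and 4 wks.

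The calls in these lists changed with the processing as those of the 9 genes did. With slide as a random block, limma kept none of the list calls named here, and their adjusted p ran from 0.437 to 0.707 at 24 hrs (5-day) and from 0.0569 to 0.277 at 4 wks. Over all genes that setting took the calls from 543 to 9 and from 699 to 12. With loess alone, Cdkn2c (adjusted p = 0.0602), Odc1 (0.160) and Tdg (0.599) lost their calls at 24 hrs (5-day), as did Dusp2, Ier5, Cdkn2b and Tdg at 4 wks (0.289 to 0.560), while Mcl1, Creb1, Mga and Gas2 kept theirs (up to 0.0498). Cdkn2c was called in 12 of 16 settings and Mcl1 in 11 of 17. Dusp2 was lower in AggE in 15 of 17 settings and Cdkn2b in 12 of 16, and the other list calls named here kept their sign in every setting run.

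Markers of the cell types a liver sample could hold were read in the same fit. Of 61 marker genes in 11 lists, limma called 2 higher (Spp1 and Cela2a) and 0 lower at 24 hrs (5-day), 0 at 24 hrs (10-day) and 1.5 wks, and 2 higher and 1 lower at 4 wks (Lep, Cd4 and Epcam), where 3.19% of all genes were called at the first point and 4.11% at the last. Without Ctrl mouse 4, Epcam alone was called at 4 wks, beside 1.78% of all genes. Hepatocyte markers were lower in AggE in 7 of 7 cases at 4 wks (median -0.26, 0 called), and Kupffer cell and macrophage markers in 4 of 6 (median -0.35, 0 called), and skeletal muscle markers were higher in 4 of 4 (median 0.34, 0 called). Their part in the changes of the 9 genes was not tested.

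Sequence before the transcription start was read for 7 of the 9 genes measured (RefSeq, GRCm38.p6), for the 250 bases next to the start. Myc and Egr1 are not among the 7, so the motif counts do not cover them. Those of Jun and Gadd45a, called at 4 wks, and of Atf3, which stood out with them in Ctrl mouse 4, are shown 5′ to 3′ on the strand of the gene, with capitals for matches to the motifs named next.

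Jun, chr4:95052223-95052472, minus strand: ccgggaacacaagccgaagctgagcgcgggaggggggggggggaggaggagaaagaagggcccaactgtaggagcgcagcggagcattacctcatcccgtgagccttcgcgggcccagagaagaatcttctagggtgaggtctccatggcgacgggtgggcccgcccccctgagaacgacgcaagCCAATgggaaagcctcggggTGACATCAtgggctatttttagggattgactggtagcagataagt
Gadd45a, chr6:67037408-67037657, minus strand: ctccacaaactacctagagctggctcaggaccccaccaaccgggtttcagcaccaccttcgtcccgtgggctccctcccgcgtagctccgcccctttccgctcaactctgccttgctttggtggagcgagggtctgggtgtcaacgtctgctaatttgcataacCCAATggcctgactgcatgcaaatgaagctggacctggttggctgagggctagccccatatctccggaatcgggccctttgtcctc
Atf3, chr1:191183334-191183583, minus strand: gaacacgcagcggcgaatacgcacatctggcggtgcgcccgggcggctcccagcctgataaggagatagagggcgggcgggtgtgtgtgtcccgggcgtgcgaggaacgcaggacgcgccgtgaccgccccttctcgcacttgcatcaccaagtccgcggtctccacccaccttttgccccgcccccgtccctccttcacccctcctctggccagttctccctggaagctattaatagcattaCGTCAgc

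Of the 6 motifs searched on both strands, the E-box CACGTG was in 2 of the 7 genes, Gadd45b and Gadd45g (6.02% of 32851 promoters of the same length), and TGANTCA (AP-1, 6.75%), TGACGTCA (CRE, 1.55%), TTCNNNGAA (STAT, 7.02%), TTGCGCAA (C/EBP, 0.164%) and the CArG box (1.47%) were in 0 of the 7. A further 4 were chosen after the sequences were read. Jun holds TGACNTCA from 45 to 38 bases before the start (7.49% of promoters), and CCAAT (33.8%) is in Jun, Gadd45a, Gadd45b and Gadd45g. TGACG (17.8%), the first letters of the CRE, is in Fos and, on the opposite strand 7 to 3 bases before the start, in Atf3, and TATAAA (12.4%) is in Gadd45b, Gadd45g and Fos. Letters in a window of this length are a description and not a measured binding site.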

How the data were processed

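Liver RNA of 39 mice was compared with a common reference on dual dye Agilent arrays without a dye swap. The authors deposited, per array, median intensities of spots and local background and the processed signals of Feature Extraction 11.5.1.1, and a value matrix holding log10 ratios of Cy-5 to Cy-3. Median intensities were corrected with normexp (offset 50), loess-normalized within arrays and quantile-normalized between arrays (limma 3.58.1, R 4.3.3, statmod 1.5.0, and the data.table package, version 1.17.8). Spots with an outlier mark (0.295% to 1.46% per array) became missing values, control spots were dropped, replicate spots were averaged, and 25903 RefSeq probes were kept with no filter on dim probes. For each gene the brightest probe on average was used. One limma fit held 8 group means, AggE was contrasted with Ctrl at each point, and p-values were Benjamini-Hochberg adjusted over all RefSeq probes. A probe was well above background where more than 50% of its spots were marked in Cy-5. Symbols came from RefSeq (GRCm38.p6), for 24375 probes. The fit was also run on simulated data with independent noise. Those data held no slide effect and no outlying mouse, so the run does not test for either, and its outcome is not given here.

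Named genes were the 10 listed, every gene of the pathway lists called in any comparison or with the smallest p in each, and the 3 genes most like a gene measured in at least 36 livers. One gene that this rule names is not reported here. Members and lists were chosen with earlier results of these data known. Replicate numbers did not pair mice (correlations of same-numbered deviations from -0.45 to 0.50).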

Additional observations from a re-analysis of the deposited data

Results flagged for a closer look

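In 72 sets of a gene and a group, 7 held a mouse far from the rest by Dixon's ratio, where chance gives about 1 in 20. Of these, 4 were Ctrl mouse 4 at 4 wks, with Gadd45a at 1.25 (next -1.12), Jun at -0.15 (next -0.99), Atf3 at 1.29 (next -0.55) and Egr1 at 0.62 (next -3.77) on the log2 scale. AggE mouse 5 at 24 hrs (5-day), on another slide than the other 4, was highest for Gadd45g at -0.70 (next -1.95) and lowest for Fos at -2.47 (next -1.34). AggE mouse 1 at 24 hrs (10-day) was highest for Jun at -0.88 (next -1.24).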

How the results depend on the processing

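At 24 hrs and 1.5 wks, limma called 0 of 9 genes under each of the other settings and without each mouse in turn, and the 3 differences between comparisons likewise had 0 calls throughout. A count of 0 in groups of 4 and 5 dim arrays does not show that genes did not change. The 3 calls at 4 wks held under some settings only. The count was 3 with Cy-5 alone, with probes well above background and with array weights, 4 with scan day as a fixed block and 2 with the mean over probes. Over all genes these settings called 480, 842, 1641, 1043 and 592 in turn, against 699 in the main fit. Limma called 0 of the 9 with no background correction, with processed signals, with an offset of 0, with loess only or Aquantile (which leave the ratios alike), with the deposited log ratios, with only the groups of the comparison and with slide as a random block. The calls over all genes were 211, 9, 2, 1713, 103, 77 and 12 in that order. It called 1 of the 9 with an offset of 16, with all non-control probes, with slide as a fixed block (Cdkn1a) and with a replicate block, beside 255, 558, 698 and 529 over all genes. Leaving out 1 mouse gave 0 to 3 calls, 0 without AggE mouse 2 or 3 or Ctrl mouse 3, and 1 without AggE mouse 4 or 5 or Ctrl mouse 1 or 4. The causes were not tested. Over all genes the share of calls lower in AggE was 67.1%, and 54.3% with loess only. Of the 9 estimates at 4 wks, 6 were negative in all settings, Cdkn1a in 15 and Gadd45b in 13 of 17 and Fos in 14 of 16. Restricting 1.5 wks to the first scan day, chosen after seeing the data, gave 0 calls. Low signal limits Fos, Atf3 and Jun most.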
